A study of Mus musculus with 59 samples.

Results

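Interferon response and antigen presentation genes were followed through the cortex and hippocampus of wild-type mice and mice labelled heterozygous for Slc25a1, Mrpl40 or both. The group was chosen by gene symbol and held 39 of the 57180 genes in the deposited count table, and all 39 symbols were found. It comprised 8 sensors and signal relay genes, 17 antiviral effectors and regulators, 5 interferon-inducible GTPases, 5 genes of antigen processing and 4 genes of the MHC class I complex. Counts of 38 members were high enough for testing in both tissues. Zbp1, a sensor of nucleic acids in the Z form, held 0 to 10 counts per library in cortex and 0 to 8 in hippocampus and was not tested.

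Interferons are secreted proteins that cells release when they sense foreign or misplaced nucleic acid, including mitochondrial DNA or RNA in the cytosol. Type I interferons signal through their receptor to a complex that includes Stat2 and Irf9 and binds the interferon-stimulated response element, a repeat of GAAA, in promoters of the induced genes. Interferon gamma acts mainly through a palindromic site. The induced genes block virus replication, and they raise the immunoproteasome, the peptide transporter Tap1 and Tap2, and the MHC class I molecules that show peptides to T cells. In the healthy brain most of these genes are low, with microglia and vascular cells as known sources and class I molecules also made by neurons.

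Promoter sequences of 5 members are shown because the members are known for sharing the response element, and because these 5 carry results given further on. They come from the RefSeq promoter windows on build GRCm38.p6, are printed 5′ to 3′ on the gene's strand, and cover 120 bases each. Capitals mark matches, on either strand, to the core of the response element, GAAA, any 2 bases and GAAA again, or to the palindrome TTCNNNGAA. The Ifit1 stretch (chr19:34640739-34640858, plus strand) ends 31 bases before the start of transcription. The Isg15 stretch (chr4:156200829-156200948, minus strand) ends 11 bases before the start. The Igtp stretch (chr11:58199436-58199555, plus strand) reaches the start. The B2m stretch (chr2:122147507-122147626, plus strand) ends 61 bases before the start, and that of H2-T23 (chr17:36032742-36032861, minus strand) ends 41 bases before it.
Ifit1: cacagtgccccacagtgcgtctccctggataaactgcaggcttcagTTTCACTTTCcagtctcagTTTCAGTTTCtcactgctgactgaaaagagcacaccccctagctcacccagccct
Isg15: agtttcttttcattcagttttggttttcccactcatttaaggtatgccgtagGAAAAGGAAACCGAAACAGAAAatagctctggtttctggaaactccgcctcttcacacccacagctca
Igtp: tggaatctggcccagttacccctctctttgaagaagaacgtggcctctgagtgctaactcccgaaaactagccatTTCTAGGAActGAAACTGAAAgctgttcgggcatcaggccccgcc
B2m: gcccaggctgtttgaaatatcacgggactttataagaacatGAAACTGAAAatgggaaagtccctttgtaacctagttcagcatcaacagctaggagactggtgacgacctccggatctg
H2-T23: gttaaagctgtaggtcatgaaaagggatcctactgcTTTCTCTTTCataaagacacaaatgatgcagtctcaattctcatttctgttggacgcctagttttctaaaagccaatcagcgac
Ifit1 and Isg15 hold overlapping or closely spaced copies of the element, Igtp holds an element beside a palindrome, and B2m and H2-T23 hold 1 match each in the stretch shown. Of the 39 members, 31 had a promoter window, 37 windows in all because some genes have several starts. The core of the response element occurred in 18 of the 37 windows, belonging to 17 of the 31 genes, against 3.44% of all 32851 windows of the same length. It was present for all 5 GTPases and for 0 of the 4 antigen processing genes that had a window. TTCNNNGAA, which can overlap it, occurred in 8 of the 37 windows against 8.30% of all windows. These matches describe the letters only.

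The labels describe poly(A) RNA sequencing of cortex and hippocampus from male mice in 4 genotypes, namely wild type, Slc25a1 -/+ with both copies of Mrpl40, Mrpl40 -/+ with both copies of Slc25a1, and mice carrying 1 copy of each. Both genes encode mitochondrial proteins and lie in the mouse counterpart of the human 22q11.2 deletion region; strain, age and the design of the alleles are not in the labels, and no treatment is named. Wild type had 9 cortex and 8 hippocampus libraries, and each of the other genotypes, called Slc25a1 het, Mrpl40 het and double het here, had 7 of either tissue. In all there were 59 libraries of 30 animals, and 29 animals gave a library of each tissue.

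Library totals ran from 21443017 to 32120906 counts. The tissue labels matched their markers: 5 cortex markers summed to 699 to 1015 counts per 1000000 (CPM, with library sizes scaled by composition) in cortex and to 142 to 225 CPM in hippocampus, and 5 hippocampus markers to 209 to 272 CPM and 812 to 1514 CPM. Slc25a1 fell into 2 separate ranges, 10.6 to 13.0 CPM and 20.8 to 26.1 CPM in cortex and 10.8 to 13.1 CPM and 21.4 to 27.7 CPM in hippocampus. In both tissues 6 animals lay in the range that goes against their label: wild-type animals 6 and 7, Slc25a1 het animals 3 and 4, and double het animals 5 and 6, numbered within their groups. Mrpl40 itself averaged 17.7 ± 1.52 CPM (SD, n = 9) in wild-type cortex and 17.2 ± 1.54 CPM (SD, n = 7) in cortex labelled Mrpl40 het. In hippocampus the means were 15.8 ± 1.21 CPM (SD, n = 8) and 15.8 ± 1.11 CPM (SD, n = 7). Double het means were 17.2 ± 1.40 CPM in cortex and 16.1 ± 1.02 CPM in hippocampus (SD, n = 7 each). The level of Mrpl40 was thus not reduced in the labelled groups and does not check the Mrpl40 labels. Genotypes are therefore given as labelled, with values lacking those 6 animals where they move a result.

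Levels of the members covered a wide range. Per kilobase of exon, B2m, the light chain of every class I molecule, was the highest at 77.7 CPM in wild-type cortex and 72.0 CPM in hippocampus. H2-D1, a classical class I heavy chain, followed in cortex at 13.5 CPM per kilobase. H2-T23 (ENSMUSG00000067212), a nonclassical class I heavy chain, stood 4th in cortex at 6.92 CPM per kilobase and 10th in hippocampus at 2.59. The class I complex thus supplied 3 of the 4 highest members in cortex. The antiviral effectors were spread widely, from Ifi27, 3rd in cortex at 9.98 CPM per kilobase and 2nd in hippocampus at 15.2, to Ifit1 at 0.829 and Oasl2 at 0.538 CPM per kilobase in wild-type cortex. Nlrc5, the transactivator of class I genes, was at 0.103 CPM per kilobase there, and Zbp1 was the lowest at 0.042. Reads of near-identical copies (Ifit3 and Ifit3b, Oas1a and Oas1g, the H2 class I genes, the Gbp family) may have been split or lost in counting, so levels of these members are uncertain.

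Whether loss of 1 gene copy changed interferon genes was asked first in each tissue against wild type. No member passed the test in any of the 6 comparisons (edgeR's quasi-likelihood test, Benjamini-Hochberg adjusted p over all genes), nor in DESeq2's Wald test. In counts simulated for Mrpl40 het against wild type, edgeR recovered 23.9% of 1.2-fold changes in cortex and 35.8% in hippocampus. Of 1.5-fold changes it recovered 79.1% and 64.2%. The simulation changed many genes at once, which eases the adjusted threshold, whereas few genes passed in the real counts. These shares may therefore be too high for the members, and changes of either size could be missed. The members' values did not sit evenly around wild type in mice labelled Mrpl40 het, where 31 of 38 members lay below wild type in cortex with a median log2 fold change of -0.11, and 36 of 38 in hippocampus with a median of -0.14. Over all genes tested, 51.0% lay below in cortex and 52.9% in hippocampus, with medians of -0.0020 and -0.0070. Members come from the same libraries and vary together, with a median Pearson r to Oasl2 of 0.39 in cortex and 0.38 in hippocampus. Counts of members below wild type, here and by role, are therefore not separate observations, and a few libraries can move many members. At an unadjusted p under 0.05, 6 members in cortex and 10 in hippocampus lay below and 0 above, where 6.94% and 8.19% of all genes had such a p, 3.89% and 4.14% lying below. Few genes of any kind passed after adjustment, 0.0294% of those tested in cortex and 0.00496% in hippocampus. Libraries of the 2 groups overlapped for every member in both tissues, where they did not overlap for 0.0392% of all genes in cortex and 0.0645% in hippocampus.

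**Figure D1:**
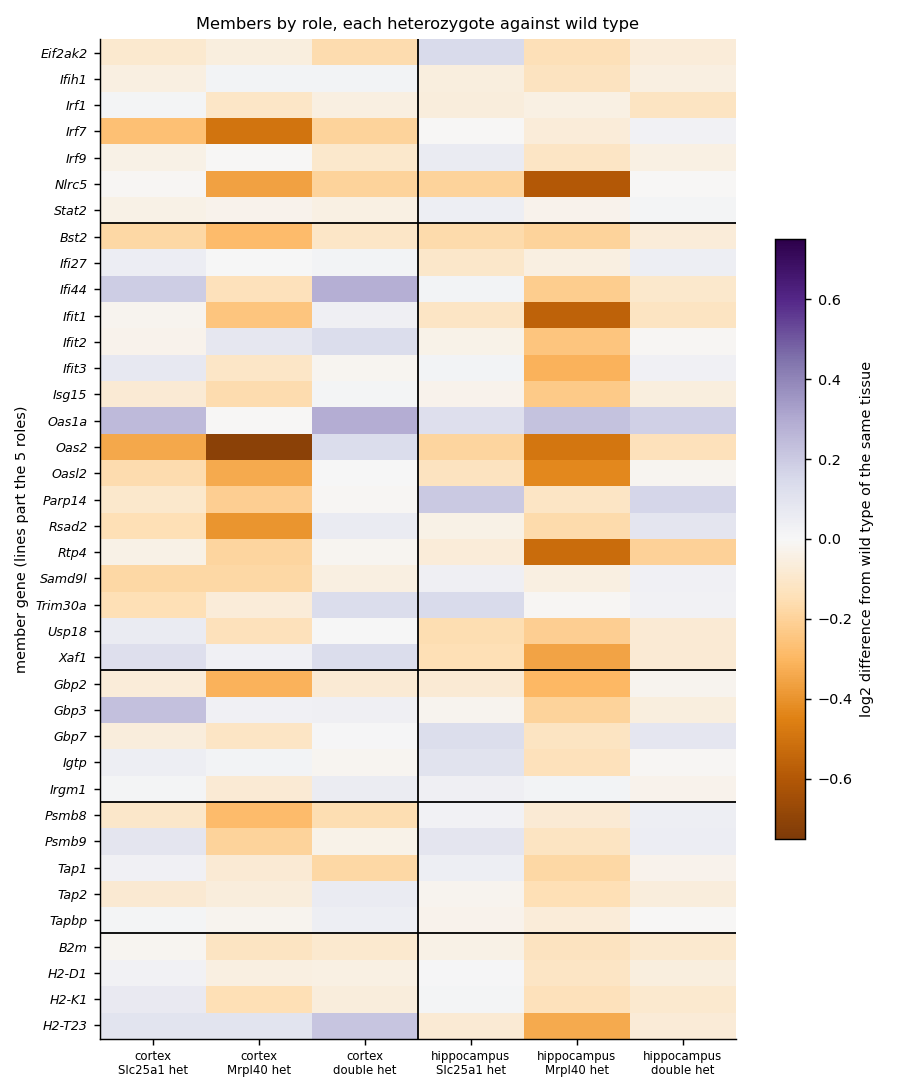
Log2 fold change of 38 members (rows, grouped by role) against wild type in each of 6 comparisons (columns: 3 genotypes in cortex and hippocampus), in colour. The Mrpl40 het columns are mostly below 0 (31 of 38 members in cortex and 36 of 38 in hippocampus), and no cell passed the test.

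Among the sensors and signal relay genes, 6 of 7 tested members lay below wild type in Mrpl40 het cortex and 7 of 7 in hippocampus, with medians of -0.055 and -0.11 on the log2 scale. Irf7, the factor that amplifies type I interferon production, ran from 1.06 through a median of 1.85 to 3.29 CPM in 9 wild-type cortex libraries and from 0.907 through 1.22 to 1.87 CPM in 7 Mrpl40 het libraries. The highest Mrpl40 het library was thus close to the wild-type median, and the ranges overlapped. The log2 fold change was -0.50 ± 0.181 (SE; edgeR adjusted p = 0.594). It ran from -0.589 to -0.357 when each library was left out in turn, and from -0.505 to -0.348 over the other alternatives. Wild-type animal 6, of discordant Slc25a1 level, held the 3.29 CPM. In hippocampus the effect on Irf7 differed from that in cortex by +0.49 ± 0.210 (SE, log2; edgeR adjusted p = 0.829). Nlrc5 had the lowest fold change of the members in hippocampus. It ran from 0.509 through 0.841 to 1.29 CPM in wild type and from 0.370 through 0.559 to 1.08 CPM in Mrpl40 het, on 10 to 32 counts per library. Of the 7 Mrpl40 het libraries 6 were below the wild-type median, and animal 6 was above it. The log2 fold change was -0.60 ± 0.250 (SE; edgeR adjusted p = 0.590).

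Among the antiviral effectors and regulators, 14 of 17 lay below wild type in Mrpl40 het cortex with a median log2 fold change of -0.16, and 16 of 17 in hippocampus with a median of -0.22. Ifit1 (ENSMUSG00000034459), which binds RNA with foreign caps, ran from 1.04 through 2.14 to 3.73 CPM in wild-type cortex and from 1.16 through 1.88 to 2.43 CPM in Mrpl40 het cortex. These ranges nested within each other, and the log2 fold change was -0.25 (edgeR adjusted p = 0.811). In hippocampus Ifit1 ran from 1.52 through 2.01 to 2.75 CPM in 8 wild-type libraries and from 1.04 through 1.45 to 1.61 CPM in 7 Mrpl40 het libraries. All 7 of the latter were below the wild-type median, although the ranges overlapped between 1.52 and 1.61 CPM. The log2 fold change was -0.56 ± 0.179 (SE; edgeR adjusted p = 0.587).

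Oasl2 (ENSMUSG00000029561), an oligoadenylate synthetase-like protein, ran from 2.43 through 3.28 to 5.35 CPM in wild-type cortex and from 2.14 through 2.60 to 3.24 CPM in Mrpl40 het cortex. In hippocampus it ran from 2.19 through 4.33 to 4.93 CPM in wild type and from 2.31 through 2.72 to 4.28 CPM in Mrpl40 het. In each tissue all 7 Mrpl40 het libraries were below the wild-type median, and both pairs of ranges overlapped. The log2 fold changes were -0.34 ± 0.147 in cortex (SE; edgeR adjusted p = 0.684) and -0.43 ± 0.157 in hippocampus (adjusted p = 0.587). Oas2 (ENSMUSG00000032690), which makes the oligoadenylates that activate RNase L, had the smallest p of the members in cortex. It ran from 0.381 through 0.751 to 0.958 CPM in wild-type cortex and from 0.306 through 0.414 to 0.710 CPM in Mrpl40 het cortex. Mrpl40 het animal 2 held the 0.710 CPM and the next highest was 0.443 CPM. The log2 fold change was -0.71 ± 0.218 (SE; edgeR adjusted p = 0.518). Rtp4, a chaperone induced by interferon, ran from 1.02 through 1.96 to 2.27 CPM in wild-type hippocampus and from 0.888 through 1.37 to 1.49 CPM in Mrpl40 het hippocampus. All 7 Mrpl40 het libraries were below the wild-type median, and wild-type animal 9 lay at the low end with them. The log2 fold change was -0.52 ± 0.188 (SE; edgeR adjusted p = 0.587).

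**Figure D2:**
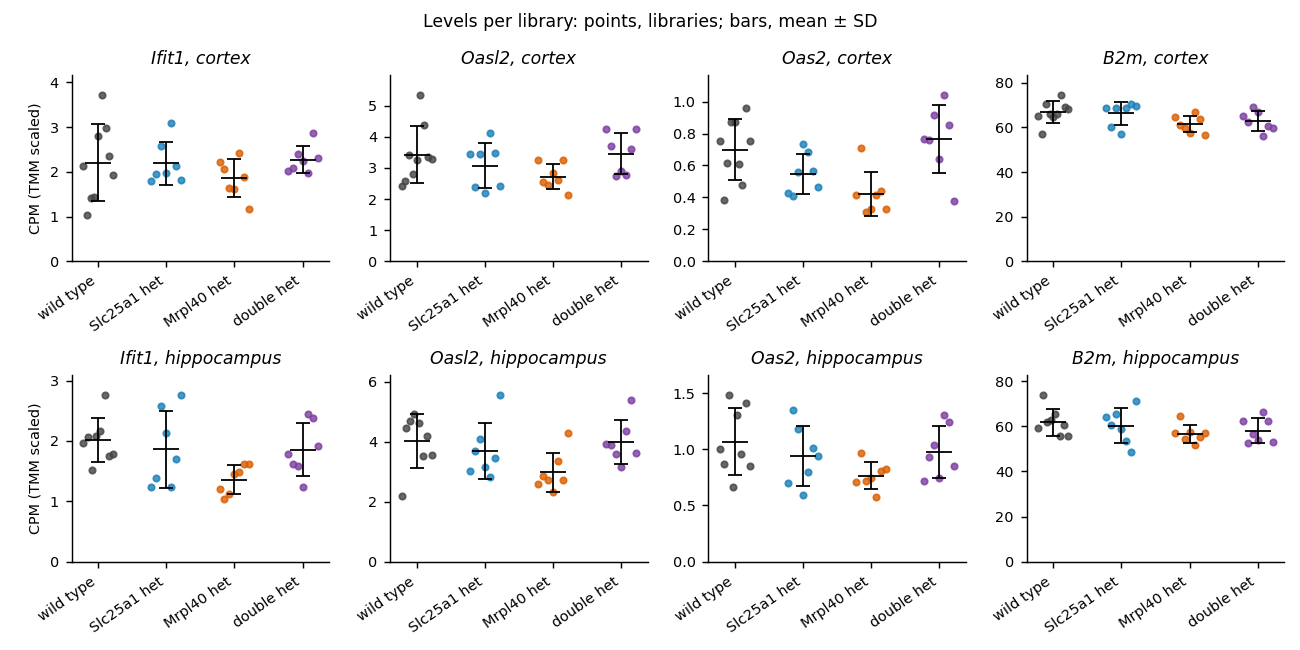
CPM of Ifit1, Oasl2, Oas2 and B2m (panels) in every cortex and hippocampus library, by labelled genotype; points are libraries and bars the mean with its SD. The groups overlap in every panel, and the Mrpl40 het points of Ifit1 in hippocampus reach no higher than 1.61 CPM against 2.75 CPM in wild type.

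Antigen processing genes, which trim and load peptides for class I molecules, lay below wild type in Mrpl40 het mice for 5 of 5 members in each tissue, with median log2 fold changes of -0.079 in cortex and -0.12 in hippocampus. Of the class I complex, 3 of 4 members lay below in cortex and 4 of 4 in hippocampus. B2m ran from 57.2 through 66.0 to 74.7 CPM in wild-type cortex and from 56.8 through 61.3 to 66.8 CPM in Mrpl40 het cortex, a log2 fold change of -0.12 ± 0.0488 (SE; edgeR adjusted p = 0.655). H2-T23 ran from 5.69 through 7.34 to 9.58 CPM in wild-type hippocampus and from 5.07 through 6.14 to 6.80 CPM in Mrpl40 het hippocampus, a log2 fold change of -0.34 ± 0.113 (SE; edgeR adjusted p = 0.587). All 7 Mrpl40 het values of H2-T23 were below the wild-type median. Of the GTPases, which attack the membranes around intracellular microbes, 3 of 5 lay below in cortex and 4 of 5 in hippocampus, with medians of -0.077 and -0.14.

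The cortex values depended on a few animals. Without the 6 animals of discordant Slc25a1 level, the cortex median in Mrpl40 het mice was -0.039 with 26 of 38 members below, Ifit1 was at -0.017, and Oasl2 at -0.15. Without wild-type animal 6 alone, the highest of all cortex libraries over the members, the median was -0.061 with 28 below. Without Mrpl40 het animal 7, the lowest cortex library, it was -0.069. The hippocampus median was -0.151 with 35 of 38 below when the 6 animals were left out, and between -0.197 and -0.127 when each library was left out in turn.

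Markers of other cell types also had medians away from wild type in Mrpl40 het mice. The summed levels given here were not tested, and their ranges overlapped between wild type and Mrpl40 het for every list. In bulk tissue, fewer cells of a type and less RNA per cell cannot be told apart. Of 12 microglia markers, 11 lay below wild type in Mrpl40 het cortex with a median log2 fold change of -0.091, and 10 in hippocampus with a median of -0.034. Their summed level ran from 372 to 461 CPM in wild-type and from 343 to 406 CPM in Mrpl40 het cortex, and from 386 to 491 CPM and 384 to 448 CPM in hippocampus. Of 10 endothelial markers, 10 lay below in cortex with a median of -0.12 and 9 in hippocampus with a median of -0.097. Their sum ran from 224 to 287 CPM in wild-type and from 200 to 247 CPM in Mrpl40 het cortex, and from 212 to 291 CPM and 211 to 293 CPM in hippocampus. Mean endothelial sums in wild type, Mrpl40 het and double het were 251, 229 and 242 CPM in cortex. In hippocampus they were 254, 235 and 253 CPM. In double het cortex the microglia sum ran from 348 to 398 CPM, with 11 of 12 markers below wild type. Mean microglia sums in wild type, Mrpl40 het and double het were 407, 378 and 372 CPM in cortex. In hippocampus they were 432, 420 and 433 CPM. Of 6 astrocyte markers, 6 lay below wild type in Mrpl40 het cortex and 6 in hippocampus, with medians of -0.089 and -0.088. In double het cortex 6 lay below wild type. Their sum ran from 1649 to 1960 CPM in wild-type and from 1517 to 1760 CPM in Mrpl40 het cortex, and from 2195 to 2740 CPM and 2065 to 2579 CPM in hippocampus. Of 5 neuron markers, 5 lay above wild type in Mrpl40 het cortex and 4 in hippocampus, with medians of 0.074 and 0.106. Their sum ran from 6853 to 7922 CPM in wild-type and from 7561 to 8520 CPM in Mrpl40 het cortex, and from 5323 to 6298 CPM and 5238 to 7549 CPM in hippocampus. Mean sums of some other lists lay proportionally further from wild type. Meningeal fibroblast markers averaged 28.0 CPM in Mrpl40 het cortex, against 36.2 ± 18.3 CPM (SD, n = 9) in wild type. Their hippocampus means were 58.1 CPM and, in wild type, 68.8 CPM. Choroid plexus markers were higher, at 7.03 against 5.29 CPM (cortex) and 45.0 against 28.9 CPM (hippocampus). Oligodendrocyte markers averaged 2598 against 2132 CPM in cortex, but 2756 against 2850 CPM in hippocampus. The part of any of these cell types in the members' values was not tested. Lymphocyte markers summed to 1.29 to 3.43 CPM in cortex and to 0.465 to 1.42 CPM in hippocampus. Of the 7 markers, Cd3d, a part of the T cell receptor complex, was most often at 0, in 19 of 30 cortex and 25 of 29 hippocampus libraries. Nkg7 was at 0 in 14 and 12, Cd3e in 8 and 13, Ms4a1 in 5 and 12, and Cd8a in 5 and 4. Cd4 and Cd79a were at 0 in no library, and Cd4 had the highest median, 1.24 CPM in cortex and 0.326 CPM in hippocampus.

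In mice labelled Slc25a1 het the members lay on both sides of wild type. In cortex 22 of 38 were below, with a median log2 fold change of -0.026, and in hippocampus 21, with a median of -0.022, against 50.3% and 48.1% of all genes. Groups overlapped for every member, and were apart for 0.0343% and 0.203% of all genes. Without the 6 animals of discordant Slc25a1 level the cortex median changed sign to 0.063, with 11 of 38 below, and the hippocampus median was -0.046, with 24 below. Leaving out wild-type animal 6 alone also turned the cortex median, to 0.020, and leaving out Slc25a1 het animal 5 turned that of hippocampus, to 0.027. Gbp3, a guanylate-binding protein, ran from 3.05 through 4.07 to 6.03 CPM in wild-type cortex and from 4.24 through 4.91 to 5.93 CPM in Slc25a1 het cortex. All Slc25a1 het libraries were above the wild-type median, within its range. The log2 fold change was 0.23 ± 0.102 (SE; edgeR adjusted p = 1.00), and Gbp3 was the only member at an unadjusted p under 0.05, where 3.17% of all genes were. Oas2 in cortex was at -0.34 ± 0.212 (SE, log2), and Samd9l, a brake on protein synthesis and growth, at -0.18 ± 0.116. Without the 6 animals Gbp3 was at 0.38, Oas2 at -0.54 and Samd9l at -0.066. In hippocampus 0 members were at p under 0.05, where 7.77% of all genes were. The 3 of smallest p were Eif2ak2, the kinase that stops translation on double-stranded RNA, at 0.14 ± 0.0997 (SE, log2), Parp14, an ADP-ribosyltransferase, at 0.20 ± 0.149, and Gbp7 at 0.13 ± 0.0989. Without Slc25a1 het animal 7 these values were 0.091, 0.040 and 0.066. After adjustment 0% of all genes passed in either tissue, so a count of 0 members matched the background.

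Double het mice, by label heterozygous for Mrpl40 as well, had 19 of 38 members below wild type in cortex with a median log2 fold change of -0.0045. In hippocampus 26 lay below with a median of -0.028, against 51.4% of all genes below in each tissue. Groups again overlapped for every member, and were apart for 0.127% and 0.0546% of all genes. Without the 6 animals the medians were 0.029, with 15 below, and -0.067, with 28 below. Ifit2, a relative of Ifit1, ran from 13.4 through 15.5 to 17.0 CPM in wild-type cortex and from 14.9 through 17.1 to 17.6 CPM in double het cortex, a log2 fold change of 0.13 ± 0.0597 (SE; edgeR adjusted p = 0.387). The ranges overlapped over most of their width, and it was the only member at p under 0.05 in cortex, where 10.9% of all genes were. B2m in cortex was at -0.090 ± 0.0489 (SE, log2) and the peptide transporter subunit Tap1 at -0.18 ± 0.113. Without the 6 animals B2m in cortex was at -0.027. In hippocampus B2m was at -0.090 ± 0.0691, Irf1, the factor that drives class I genes, at -0.12 ± 0.100, and the class I heavy chain H2-K1 at -0.092 ± 0.0772. At an unadjusted p under 0.05 were 0 members there, against 5.28% of all genes. Genes passing after adjustment were 0.0686% in cortex and 0.00992% in hippocampus.

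Double het mice were then set directly against each single het. This comparison shares the Mrpl40 het libraries with the one above, so its values are not separate evidence on them. Against Mrpl40 het, 5 of 38 members lay below in cortex with a median log2 fold change of 0.127, and 3 in hippocampus with a median of 0.129, where 50.1% and 49.9% of all genes lay below. With 2 surrogate variables as covariates the hippocampus median was 0.064, with 5 below, and without the 6 animals it was 0.091, with 9 below. Oas2 in cortex ran from 0.378 through 0.766 to 1.04 CPM in double het libraries, against 0.306 through 0.414 to 0.710 CPM in Mrpl40 het. Its log2 fold change was 0.85 (edgeR adjusted p = 0.293), and the groups overlapped. Ifit1 was at 0.44 and Oasl2 at 0.42 in hippocampus, both at p under 0.05 before adjustment, where 4.68% of all genes were. The smallest adjusted p of a member there was 0.958. Against Slc25a1 het the medians were 0.024 in cortex and -0.017 in hippocampus. No member passed in these comparisons, and 0.0588%, 0.00490%, 0% and 0% of all genes did in cortex against Slc25a1 het, cortex against Mrpl40 het and the same 2 in hippocampus. Whether the double het departed from the sum of both single het effects was fitted as an interaction, and 0 members and 0% of all genes passed in either tissue. The members lay above 0 for 30 of 38 in cortex with a median of 0.081, and for 32 in hippocampus with a median of 0.101 (log2), against medians of 0.0014 and -0.0018 over all genes. Without the 6 animals the cortex median was 0.033, with 17 of 38 below 0. These values again rest on the same Mrpl40 het libraries.

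**Figure D3:**
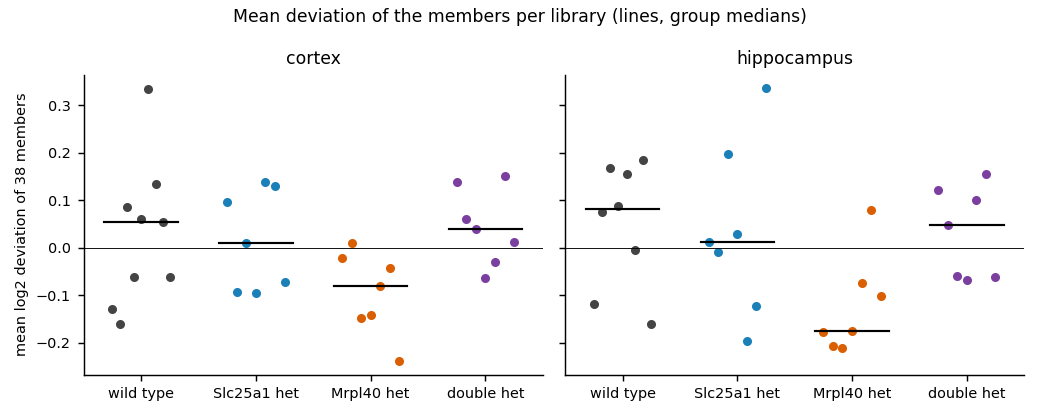
Mean deviation of the 38 tested members from the average over the tissue's libraries (log2), for each cortex and hippocampus library by labelled genotype, with the group median as a line. Mrpl40 het medians are -0.082 in cortex and -0.175 in hippocampus, and single libraries of other groups stand high, at 0.33 in cortex and 0.34 in hippocampus.

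Averaged over the 38 tested members, group medians of the libraries' deviation from the tissue mean in cortex were -0.082 for Mrpl40 het, 0.0090 for Slc25a1 het, 0.039 for double het and 0.054 for wild type (log2). In hippocampus they were -0.175, 0.012, 0.048 and 0.082 in the same order. Mrpl40 het libraries in hippocampus reached from -0.211 to 0.079, and the highest of them, from animal 6, stood apart from the other 6, all below 0. Wild-type animal 6, whose Slc25a1 level goes against its label, stood highest in cortex at 0.33. Slc25a1 het animal 7 stood highest in hippocampus at 0.34. These means describe the libraries and carry no test.

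Genotype effects were compared between tissues with the animal as a block. No member's effect differed between cortex and hippocampus after adjustment, and of all genes 0% did for each single het and 0.0234% for the double het. For Mrpl40 het, Ifit2 had the smallest p, with an effect lower in hippocampus by -0.32 ± 0.111 (SE, log2; edgeR adjusted p = 0.829).

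The tissues themselves differed strongly. Of 38 members, 23 passed the test between hippocampus and cortex of the same animals, 10 higher and 13 lower in hippocampus, where 77.5% of all genes passed, 39.8% higher and 37.7% lower. The members' share was thus below that of all genes. Every gene of antigen processing and of the class I complex passed, against 3 of 7 sensors, 9 of 17 effectors and 2 of 5 GTPases.

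**Figure D4:**
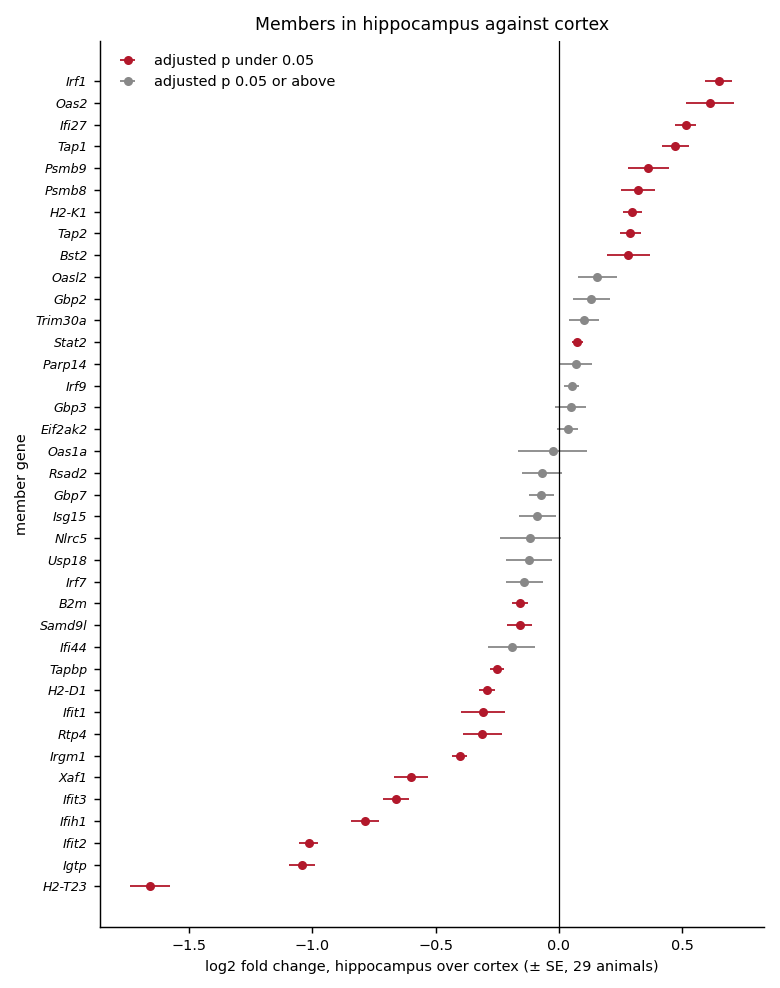
Log2 fold change of hippocampus over cortex with its SE for the 38 tested members, ordered by size, from 29 animals with the animal as a block; red points passed the test and grey points did not. H2-T23 lies farthest below 0 at -1.66 and Irf1 farthest above at 0.65.

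Within the class I complex the members went separate ways. H2-T23 ran from 12.9 to 30.5 CPM over 30 cortex libraries and from 5.07 to 9.58 CPM over 29 hippocampus libraries. The tissues did not overlap, and hippocampus was 3.16-fold lower (log2 fold change -1.66 ± 0.0803, SE; edgeR adjusted p = 5.38e-17). By genotype the difference was -1.85 in Mrpl40 het, -1.73 in double het, -1.61 in Slc25a1 het and -1.45 in wild-type mice. H2-D1 and B2m were lower by less, at -0.29 and -0.16, while H2-K1 was higher at 0.30. In antigen processing, the immunoproteasome subunits Psmb8 and Psmb9 were higher in hippocampus by 0.32 and 0.36 on the log2 scale, and the transporter subunits Tap1 and Tap2 by 0.47 and 0.29. Tap1 was higher in 27 of 29 animals. Tapbp, which bridges the transporter to class I molecules, was lower at -0.25.

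Of the GTPases that passed, both were lower in hippocampus. Igtp ran from 3.88 through 5.90 to 8.21 CPM in cortex and from 2.16 through 2.70 to 4.02 CPM in hippocampus. The ranges met only at their edges, and hippocampus was 2.06-fold lower (log2 fold change -1.04 ± 0.0533, SE; edgeR adjusted p = 4.80e-19). Irgm1 was lower at -0.40, in 29 of 29 animals.

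Sensors differed in both directions. Ifih1, which detects long double-stranded RNA, ran from 4.63 through 5.86 to 7.66 CPM in cortex and from 2.67 through 3.49 to 5.24 CPM in hippocampus (log2 fold change -0.79 ± 0.0566, SE; edgeR adjusted p = 8.10e-15). Irf1 went the other way, from 5.08 through 6.69 to 8.37 CPM in cortex and from 7.53 through 11.4 to 13.6 CPM in hippocampus (0.65 ± 0.0542, SE; adjusted p = 7.38e-13). Stat2 was higher by 0.075. Ranges of Ifih1 and of Irf1 overlapped in part between the tissues.

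Effectors also divided. Ifit2 ran from 11.9 through 15.8 to 17.9 CPM in cortex and from 6.45 through 7.98 to 12.0 CPM in hippocampus, 2.02-fold lower (log2 fold change -1.02 ± 0.0398, SE; edgeR adjusted p = 2.12e-22). Ifit3 ran from 6.85 through 8.99 to 12.7 CPM in cortex and from 4.11 through 5.74 to 11.1 CPM in hippocampus (-0.66 ± 0.0530; adjusted p = 1.42e-13), and only 1 of 29 animals was higher in hippocampus. Ifit1 was lower as well, at -0.31 (adjusted p = 0.0023), so all 3 Ifit members were lower in hippocampus. Xaf1, a proapoptotic interferon-induced protein, ran from 3.74 through 5.57 to 6.90 CPM in cortex and from 2.42 through 3.55 to 6.86 CPM in hippocampus (-0.60 ± 0.0704; edgeR adjusted p = 2.10e-09). Oas2 ran from 0.306 through 0.612 to 1.04 CPM in cortex and from 0.579 through 0.867 to 1.48 CPM in hippocampus, higher in 26 of 29 animals (0.61 ± 0.0972; edgeR adjusted p = 7.19e-07). The tissues overlapped widely for Xaf1 and Oas2, and the differences show between tissues of the same animal. Ifi27, a small membrane protein induced by type I interferon, was higher by 0.52 in 29 of 29 animals, and Bst2, which tethers virions to the cell surface, by 0.28. Oasl2 was at 0.16 and did not pass (adjusted p = 0.070). Microglia markers were higher in hippocampus for 12 of 12, of which 8 passed, with a median log2 fold change of 0.15; their part in the members' differences was not tested.

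Other genes of the pathway were taken from a list of ligands, receptors, sensors, induced genes and antigen presentation genes. No pathway gene passed in any genotype comparison. In Mrpl40 het mice, 77 of 112 tested lay below wild type in cortex with a median log2 fold change of -0.056, and 81 of 111 in hippocampus with a median of -0.068. Among further interferon-induced genes, 39 of 48 lay below in each tissue, with medians of -0.18 and -0.13. Lgals3bp, a secreted glycoprotein induced by interferon, had a mean of 9.22 CPM in Mrpl40 het cortex against 11.3 CPM in wild type (log2 fold change -0.29 ± 0.0734, SE; edgeR adjusted p = 0.261).

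Between tissues 86 of 117 tested pathway genes passed, 53 higher and 33 lower in hippocampus, a share close to the 77.5% of all genes that passed (39.8% higher and 37.7% lower). Herc6, an E3 ligase for Isg15, averaged 23.6 CPM in cortex and 3.78 CPM in hippocampus (log2 fold change -2.68 ± 0.0555, SE). Socs3, an inhibitor of cytokine signaling, averaged 5.44 and 1.13 CPM (-2.31 ± 0.0590). Ifi203, a DNA-binding interferon-induced protein, went the other way at 1.13 and 8.26 CPM (2.80 ± 0.102). Shisa5 at -0.86, the immunoproteasome subunit Psmb10 at -0.89 and the interferon gamma receptor chain Ifngr2 at 0.73 completed the 6 of smallest p. Receptors and their kinases passed for 12 of 14. Of the 14 listed ligands only Il18 and Il15 had enough counts for testing, and these 2 passed, at 0.24 and 0.23.

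Whether an animal's interferon gene level in cortex went with that in hippocampus was asked over the 29 animals with both tissues, using deviations from the group mean. Members had a median Pearson r of 0.073, and 24 of 38 were above 0, against a median of 0.108 and 68.3% above 0 over all genes. Of the members 2 passed (permutation test with 100000 resamples, adjusted over all genes), where 2.27% of all genes passed with a positive r. Irf9 (ENSMUSG00000002325), the DNA-binding part of the type I interferon complex, had r = 0.67 (adjusted permutation p = 0.0075) and Spearman's rho = 0.68 (0.0084). It stayed at r = 0.68 without the 2 animals farthest from the cortex median and at 0.71 without the 6 animals of discordant Slc25a1 level. Ifi44, an effector of unknown mechanism, had r = 0.66 (adjusted permutation p = 0.017) and rho = 0.57 (0.061), and fell to r = 0.42 without the 2 animals farthest from the median, so its value rests in part on wild-type animals 6 and 9. Irf9 therefore varied between animals in the same direction in both tissues. The next were Irgm1 at 0.53 (adjusted permutation p = 0.085), Samd9l at 0.42, Igtp at 0.40 and Eif2ak2 at 0.34, none of which passed. Ifit1 was at 0.084 and Oasl2 at -0.062.

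**Figure D5:**
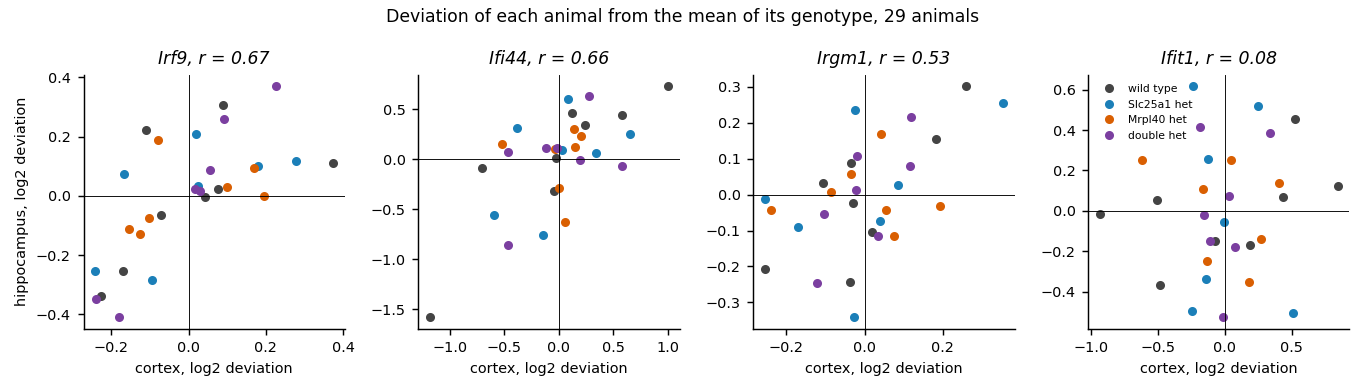
Deviation from the group mean (log2 CPM) in hippocampus (y) against cortex (x) of Irf9, Ifi44, Irgm1 and Ifit1, with 29 points per panel, each an animal, coloured by labelled genotype. Irf9 points rise along a line (r = 0.67), and Ifit1 points form no slope (r = 0.084).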

How the data were processed

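Poly(A) RNA of mouse cortex and hippocampus was sequenced as stranded paired-end libraries, per the labels' protocols. The submitters' processing notes name FastQC, HISAT2, featureCounts, DESeq2 and the mm39 build. Tool versions and the treatment of multi-mapping reads were not given there. The authors deposited raw counts per gene, used for all tests, and a signal of counts divided by 1 factor per library, used only as another scale. All 37 mitochondrially encoded genes hold 0 counts. Of the 57180 genes, 7074 have no symbol; they stayed in the fits.

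Groups follow the labels. Nothing says whether animals were littermates. Counts were fitted with edgeR 4.0.16 in R 4.3.3 (TMM scaling, filterByExpr, robust quasi-likelihood, Benjamini-Hochberg adjustment over all genes, threshold 0.05), with the 4 genotypes of a tissue together, and between tissues with the animal as a block. The labels' animal numbers give the pairing: deviations of both tissues of an animal correlated at a median of 0.108 (-0.0185 to 0.397), against -0.0093 for different animals. Correlations between tissues used log2 CPM with a prior count of 2. Scripts were tested on simulated data. Alternatives were DESeq2 1.42.0, its size factors, no filter, sva 3.50.0 surrogate variables, leaving out libraries, and, chosen after seeing the data, leaving out animals against their label or libraries high in choroid plexus markers. Exon lengths for levels per kilobase come from GENCODE vM21. Depth was 21443017 to 32120906 counts per library.

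The members and lists were chosen with earlier results of these data known. Values are given for Ifit1 and Oasl2, for the 3 members of smallest p in each comparison with wild type, for the 8 largest tissue differences that passed, for the 6 highest correlations and for the 6 pathway genes of smallest p; other named genes were chosen after their values were seen.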

Additional observations from a re-analysis of the deposited data

Results flagged for a closer look

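In each group of libraries of a tissue, the highest and the lowest value of each member were compared with the nearest other value, relative to the group's range. This singled out 17 of 304 group and member pairs, 5.59%, in 11 animals; chance gives about 1 in 20. In cortex of wild-type mice, animal 8 had Eif2ak2 at 7.90 CPM with the next at 6.12, and animal 6 had Irf9 at 19.5 CPM with the next at 16.0 and Isg15 at 3.39 CPM with the next at 2.23. Animal 6 is among those whose Slc25a1 level goes against the label. In cortex of Slc25a1 het mice, animal 2 was lowest for Ifit2 at 11.9 CPM, with the next at 14.7.

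In Mrpl40 het cortex, animal 3 was lowest for Ifi44 at 0.345 CPM with the next at 0.512. Animal 1 was highest for Oas1a at 0.794 CPM with the next at 0.477, and for H2-K1 at 20.1 CPM with the next at 16.9. Animal 2 was highest for Oas2 at 0.710 CPM with the next at 0.443. In double het cortex, animal 1 was lowest for Ifit2 at 14.9 CPM with the next at 16.8.

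In wild-type hippocampus, animal 8 was highest for Ifit2 at 12.0 CPM with the next at 8.59, animal 6 for Ifi27 at 26.3 CPM with the next at 22.6, and animal 9 was lowest for Rtp4 at 1.02 CPM with the next at 1.72. Slc25a1 het animal 7 was highest in hippocampus for 3 members at once: Ifit3 at 11.1 CPM with the next at 6.44, Parp14 at 4.99 CPM with the next at 3.17, and H2-K1 at 31.9 CPM with the next at 24.9. In hippocampus Mrpl40 het animal 6 was highest for Nlrc5 at 1.08 CPM with the next at 0.588, and double het animal 6 for Rtp4 at 2.28 CPM with the next at 1.63. That double het library also had choroid plexus markers summing to 98.8 CPM against a median of 33.7 in hippocampus, and its part in the Rtp4 value was not tested.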

How the results depend on the processing

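Over the alternatives, 471 of 472 counts of members that passed stayed within 1.5 times the reported count. Most of these were counts of 0 in genotype comparisons that stayed at 0. Only the counts between tissues could be judged by that ratio. Values of single genes, 847 in all, kept their direction, and their side of the threshold where retested. Of 460 medians over the members, all moved by less than 1 SD of the wild-type libraries, and 25 changed sign. That SD is larger than the Mrpl40 het median in cortex and close to it in size in hippocampus. Staying within it is therefore no sign of stability, and the ranges below are the better guide. With only the wild-type animals, 6 members passed as higher in hippocampus instead of 10, and 17 in either direction instead of 23, from fewer animals; without the animal block 23 passed. No member passed in any genotype comparison under any alternative, including each library left out in turn. DESeq2's Wald test called 23 genes in all in Mrpl40 het cortex and 11 in hippocampus against 6 and 1 with edgeR, none of them members. Replicate numbers of different genotypes belong to different animals; same-numbered libraries correlated at a median of 0.126 in cortex (-0.405 to 0.532) and 0.053 in hippocampus (-0.455 to 0.527), and 9 of 30 and 3 of 29 correlated best with their own number. With the replicate block, medians in Mrpl40 het mice were -0.107 in cortex and -0.167 in hippocampus, 0 members passed, and 7 and 0 genes in all passed. With 2 surrogate variables the cortex median was -0.074, and without 2 hippocampus libraries high in choroid plexus markers the hippocampus median was -0.146 with 34 of 38 members below. The changes of sign were in Slc25a1 het and double het medians, against wild type or each other, and in the tissue differences of their effects. Leaving out each cortex library moved the median of Slc25a1 het against wild type from -0.042 to 0.020 and that of double het from -0.041 to 0.053. Medians of the tissue differences ran from -0.118 to 0.0039 for Slc25a1 het and from -0.108 to 0.0053 for double het. The medians in Mrpl40 het mice kept their sign, from -0.143 to -0.039 in cortex and from -0.197 to -0.127 in hippocampus. Effects below 1 CPM rest on few reads, which limits Oas2, Nlrc5, Ifi44 and Oas1a.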

Other observations

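Within a tissue, members were also compared with Oasl2 and Ifit1 over the libraries, as deviations from the group mean; this was added after seeing the data. In cortex, Ifit3 was the member most like Oasl2 (Pearson r = 0.75 over 30 libraries, permutation p adjusted over all genes = 0.041). Spearman's rho was 0.69 (adjusted permutation p = 0.113), and r was 0.65 without the 2 libraries farthest from the median. Isg15, the ubiquitin-like modifier, followed at 0.69 (adjusted permutation p = 0.087), Parp14 at 0.61 and Gbp2 at 0.60. Of all genes, 0.0245% passed in that comparison. Eng, Rnf213, Ifitm3 and Irgm2, none of them members, ranked above Ifit3 in it. Most like Ifit1 in cortex was Gbp3 at 0.76 (adjusted permutation p = 0.082), then Ifit3 at 0.66 and Oasl2 at 0.60. In hippocampus the leading members differed: H2-T23 at 0.61, H2-D1 at 0.59 and Rsad2, which restricts virus replication, at 0.58 for Oasl2, and Stat2 at 0.54 and Rsad2 at 0.52 for Ifit1, none past the test. Over the members the median r to Oasl2 was 0.39 in cortex and 0.38 in hippocampus, and to Ifit1 0.27 and 0.29. Libraries share depth and the animals' other differences, so these values describe joint variation only.

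By GENCODE vM21, 9 of the 39 members lie on chromosome 17, which holds the mouse MHC. Parp14 and Rtp4 lie on chromosome 16 with Slc25a1 and Mrpl40.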
